A study of Mus musculus with 45 samples.

Results

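The epithelial miR-200 and miR-141 family was read as 6 mature miRNAs, mmu-mir-200b-3p, mmu-mir-200b-5p, mmu-mir-200a-3p, mmu-mir-429-3p, mmu-mir-200c-3p and mmu-mir-141-3p. The members were chosen by name from the deposited tables, which held 476 miRNAs in all. The 6 tables, 1 for each genotype and sex, listed 5 members each time, and mmu-mir-141-3p was listed in all but the table of co-ex females, which left 35 pairs of a member and a table. Small RNA was sequenced from alveolar macrophages (AM), the resident phagocytes of the air spaces, taken by lavage from 45 mice (21 males and 24 females) aged 12 weeks. The mice breathed filtered air (FA) or ozone (O3) for 3 h and were studied after 18 h of recovery. SP-A2 mice carried the human surfactant protein A gene variant 1A0, co-ex mice carried the variants 6A2 and 1A0 of SP-A1 and SP-A2 together, and both were humanized transgenic lines on the C57BL/6J SP-A knockout background, so that all 3 genotypes, KO included, lacked the mouse SP-A. There were 3 SP-A2 males per exposure, 7 co-ex males (4 in FA, 3 in O3) and 4 mice per exposure in each of the other 4 combinations of genotype and sex. The females had been synchronized in the estrous cycle, and the promoter of the transgenes is not given in the sources used here.

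The miR-200 family is known as a marker and keeper of the epithelial state. Its members bind the transcripts of ZEB1 and ZEB2, a pair of repressors of E-cadherin, and the ZEB proteins in turn repress the miR-200 genes. In the lung these miRNAs are typical of airway and alveolar epithelium, whereas macrophages are known for miR-223, miR-142 and miR-155. A miRNA finds its targets mainly through its seed, bases 2 to 8 from the 5′ end, so members with the same seed are predicted to share most targets.

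The mature sequences below (RefSeq, GRCm38.p6, seed in capitals) are shown because the family falls into groups by seed and by place in the genome that do not coincide.
mmu-mir-200b-3p: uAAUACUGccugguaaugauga
mmu-mir-200c-3p: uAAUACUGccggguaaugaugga
mmu-mir-429-3p: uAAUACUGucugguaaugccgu
mmu-mir-200a-3p: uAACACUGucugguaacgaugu
mmu-mir-141-3p: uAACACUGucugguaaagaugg
mmu-mir-200b-5p: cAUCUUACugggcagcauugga
The first 3 hold the seed AAUACUG, which only these 3 of 1679 mature mouse miRNAs in RefSeq carry, and mmu-mir-200a-3p and mmu-mir-141-3p hold AACACUG, which no other carries. The 2 seeds differ by the substitution U4C, read from mmu-mir-200b-3p to mmu-mir-200a-3p with positions counted from 1 at the 5′ end. Between mmu-mir-200b-3p and mmu-mir-200c-3p the first 22 bases differ by U11G and A22G, both outside the seed, and mmu-mir-200a-3p and mmu-mir-141-3p differ by C17A and U22G. The seed AUCUUAC of mmu-mir-200b-5p, the other arm of the mmu-mir-200b precursor, is shared only with mmu-mir-200a-5p.

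In the genome the family is split between 2 clusters, each likely to be made from 1 primary transcript. Mir200b, Mir200a and Mir429 lie on the minus strand of chromosome 4 within 1846 bases, at chr4:156053905-156055750. In GENCODE M21 they lie in introns of the protein-coding gene Ttll10 and inside the transcript Gm13648, and Mir429 overlaps an exon of Gm13648. Mir200c and Mir141 lie on the minus strand of chromosome 6 within 477 bases, at chr6:124717914-124718390, inside the antisense transcript Gm15884 and outside its exons. Each cluster therefore gives 1 member or more of either seed. The precursor of mmu-mir-200b, with both measured arms in capitals, is printed to show how the 2 mature strands sit in 1 hairpin.
Mir200b: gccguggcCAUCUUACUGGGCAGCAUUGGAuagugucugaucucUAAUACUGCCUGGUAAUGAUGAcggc

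The deposited normalised value of a miRNA is its number of reads divided by a factor of the mouse, and the whole reads could be recovered from it. The listed miRNAs held between 137965 and 2884013 reads per mouse, with a median of 766213. For levels across tables, reads were expressed as CPM, counts scaled to a common total over the 206 miRNAs in all 6 tables with TMM factors (trimmed mean of M values). Nothing separates the table from the genotype and sex it holds, so differences of level between tables and between genotypes cannot be told apart. In this cell preparation, less of a miRNA per cell and fewer cells that hold it cannot be told apart either.

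The member with the most reads was mmu-mir-200c-3p, with a median of 3824 CPM over 45 mice (range 561 to 8362), which placed it 36th of 206 miRNAs. It was followed by mmu-mir-200b-3p with 1768 (242 to 4122). Both were detected in every mouse. The members of lower level were mmu-mir-200a-3p with a median of 377 CPM, mmu-mir-429-3p with 291, mmu-mir-200b-5p with 104 and mmu-mir-141-3p with 54.0 over the 37 mice whose tables list it. All are 22 or 23 bases long, so no scaling by length was needed, but how well each sequence is ligated in the library was not measured. In these mice the 3′ arm of the mmu-mir-200b precursor was thus the abundant one. The ratio of mmu-mir-200b-5p to mmu-mir-200b-3p reads had a median of -4.27 on the log2 scale.

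Of the 262 values of the family, 22 were at 0. None was in SP-A2 mice, 16 were in co-ex mice and 6 in KO mice. By member, 8 zeros were of mmu-mir-141-3p, 6 of mmu-mir-429-3p, 5 of mmu-mir-200b-5p and 3 of mmu-mir-200a-3p. A count of 0 allows up to 3 reads, which is between 1.32 and 21.7 CPM of a mouse's listed reads, for counting error only. The tables hold only miRNAs with reads in at least 3 mice (SP-A2 and co-ex males) or 4 mice (the other tables), so a member at 0 in most mice of one exposure could be listed only through the other. This was the case for mmu-mir-429-3p in the co-ex females, with reads in 1 FA mouse and 3 O3 mice.

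Together the members made up between 0.0975% and 1.67% of a mouse's listed reads, with a median of 0.654%. The mean share was 0.564% ± 0.245 (SD, n = 23) after FA and 0.914% ± 0.287 (SD, n = 22) after O3, and the group mean was higher after O3 in all 6 tables. Among the SP-A2 males it was 0.660% ± 0.178 after FA and 0.918% ± 0.0987 after O3 (SD, n = 3 each), and among the SP-A2 females 0.748% ± 0.186 and 0.946% ± 0.364 (SD, n = 4 each). For the co-ex males the mean was 0.639% ± 0.305 (SD, n = 4) in FA and 0.828% ± 0.175 (SD, n = 3) in O3, and for the co-ex females 0.314% ± 0.152 and 0.824% ± 0.321 (SD, n = 4 each). The KO males had 0.414% ± 0.231 in FA and 1.07% ± 0.437 in O3, and the KO females 0.633% ± 0.182 and 0.874% ± 0.259 (SD, n = 4 each). These shares are given as a description, without a test. The co-ex females were the table in which every mouse exposed to O3, at 0.470% or more, lay above every FA mouse, at 0.446% or less. In the other tables the 2 exposures overlapped.

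**Figure D1:**
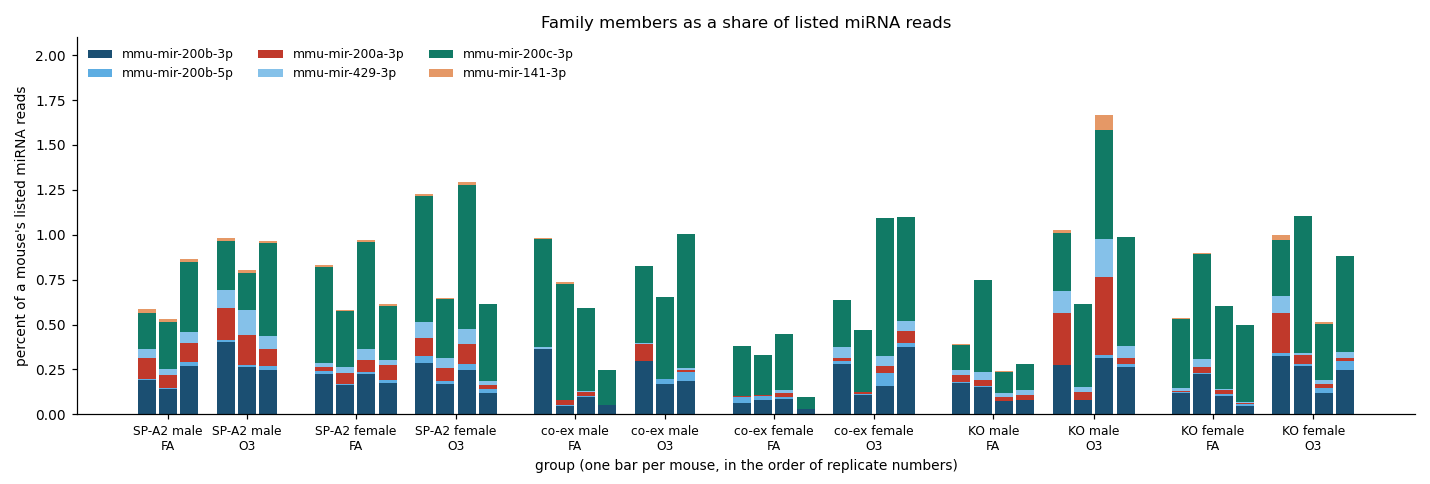
Stacked bars give each family member as a percent of a mouse's listed miRNA reads (vertical axis), 1 bar per mouse, by genotype, sex and exposure. The family share lies between 0.0975% and 1.67%, mmu-mir-200c-3p is the largest piece in most bars, and O3 replicate 3 of the KO males has the highest bar.

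The make-up of the family differed between mice. Members with the seed AAUACUG held between 68.2% and 100% of the family reads, with a median of 91.4%. The chr4 cluster gave between 10.5% and 72.5%, with a median of 37.2%. O3 replicate 3 and O3 replicate 1 of the KO males and O3 replicate 1 of the KO females had the lowest AAUACUG shares, at 68.2%, 69.7% and 73.4%, through high mmu-mir-200a-3p. In the co-ex FA mice the chr4 cluster gave between 10.5% and 38.0%.

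Whether O3 changed the family was asked first over all mice. In a limma fit of log2(normalised value + 1) over the 302 miRNAs in at least 4 tables, with the table as a covariate, 4 of 6 members rose after O3 and none fell. Of all 302 miRNAs, members included, 46 were called higher and 10 lower (adjusted p below 0.1, 18.5% called). The median difference was 1.16 on the log2 scale over the 6 members and 0.17 over all 302. Of the members called, mmu-mir-200b-3p rose by 1.04 ± 0.26 (SE, n = 45 mice; adjusted p = 0.00329, limma), and its seed mate on the other cluster, mmu-mir-200c-3p, by 0.69 ± 0.22 (adjusted p = 0.0295). The other 2 rose more on this scale with wider errors, mmu-mir-200a-3p by 1.85 ± 0.61 (adjusted p = 0.0322) and mmu-mir-429-3p by 1.97 ± 0.69 (adjusted p = 0.0473). The difference was 1.29 ± 0.69 for mmu-mir-200b-5p (adjusted p = 0.230) and -0.31 ± 0.87 for mmu-mir-141-3p (adjusted p = 0.887), and neither passed the test. Without the 2 co-ex tables, which held 16 of the 22 zeros, 2 members were called, mmu-mir-200b-3p with a rise of 0.70 (adjusted p = 0.0976) and mmu-mir-429-3p with 1.26 (adjusted p = 0.0269), whereas mmu-mir-200a-3p with 1.17 (adjusted p = 0.112) and mmu-mir-200c-3p with 0.53 (adjusted p = 0.176) were not, and the value for mmu-mir-141-3p became 0.13. The count tools on recovered reads were run over the 206 miRNAs in all 6 tables, which include 5 members and not mmu-mir-141-3p. By edgeR 2 of these 5 were called (mmu-mir-200b-3p and mmu-mir-200a-3p), with 43 of the 206 miRNAs called. By DESeq2 all 5 were called, with 52 of the 206. This exclusion of the co-ex mice was chosen after seeing the data. Without the 3 mice under 200000 listed reads, also chosen after seeing the data, 4 members were called.

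Within single tables no member was called by limma or edgeR, and 3 were called by DESeq2. In the 35 pairs of a member and a table, limma called 0 at an adjusted p below 0.1 (lowest 0.177), 6 had an unadjusted p below 0.05, edgeR called 0 and DESeq2 called 3. By limma the share of all miRNAs called was 0.67% for SP-A2 males, 1.07% for SP-A2 females, 0% for co-ex males, 1.38% for co-ex females, 5.18% for KO males and 0% for KO females. The background of DESeq2 was higher, with 2 to 54 miRNAs called in a table against 0 to 17 by limma, so its 3 calls are not to be read against the limma shares. Its share of all miRNAs in the single tables is not given here, so whether these 3 calls exceed it cannot be told. The fitted difference was above 0 in 29 of the 35 pairs, with a median of 1.19 on the log2 scale. Among all listed miRNAs it was above 0 for 43.0% of those of the KO males and for between 57.1% and 67.1% in the other 5 tables. By DESeq2 the called members were mmu-mir-200b-3p in co-ex females (2.03, adjusted p = 0.0307) and, in KO males, mmu-mir-200a-3p (2.47, adjusted p = 0.0264) and mmu-mir-429-3p (1.72, adjusted p = 0.0774).

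**Figure D2:**
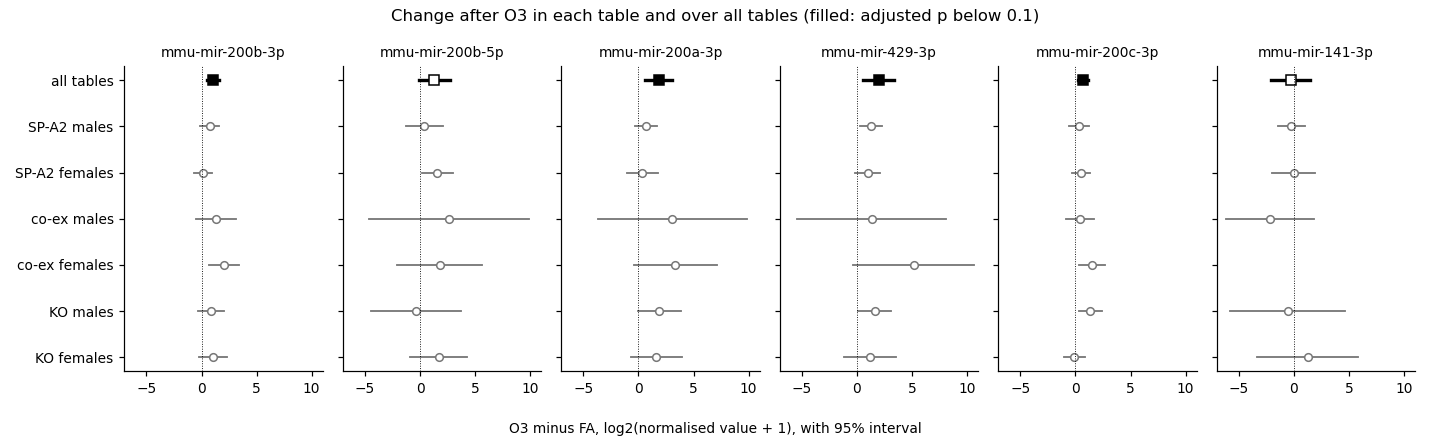
Each panel is 1 member. Points give the O3 minus FA difference in log2(normalised value + 1) on the horizontal axis, with the 95% interval of the limma fit as a line, for all tables (squares) and for each table (circles); filled symbols passed an adjusted p of 0.1. The filled squares are the 4 members called over all tables, and no circle is filled.

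The values of the single mice, in replicate order, show where these differences came from. For mmu-mir-200b-3p, the most abundant product of the chr4 cluster, the normalised value in SP-A2 males was 1529, 1268 and 2215 after FA and 3926, 2698 and 1928 after O3. The SP-A2 females had 1723, 1154, 1461 and 1467 after FA and 2660.4, 1216, 2159 and 933 after O3. Both tables overlapped between exposures, the females so widely that the fitted difference was 0.15 ± 0.37 (SE). The co-ex males had 3634, 399, 1574 and 398 after FA and 3865, 2415 and 1587 after O3. The co-ex females had 488, 553, 757 and 228 after FA and 2743, 913, 1416 and 3940.5 after O3. The co-ex females were the only table in which every O3 value of this member lay above every FA value, and 7.93% of the miRNAs of that table did not overlap between exposures in either direction. There the fitted difference was 2.05 ± 0.65 (SE; adjusted p = 0.177, limma), and it was called when FA replicate 3 (adjusted p = 0.0884) or O3 replicate 2 (adjusted p = 0.0672) was left out. Values of the KO males were 1793, 1342, 559 and 747 after FA and 2776, 713, 3077 and 1824 after O3. Those of the KO females were 855, 1770.4, 1435 and 364 after FA and 3425, 1988, 828 and 2476 after O3. For either sex of KO, 3 of the 4 O3 mice lay above every FA mouse and the other O3 mouse lay among the FA mice.

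For mmu-mir-200c-3p, the main product of the chr6 cluster, the SP-A2 males had 1612, 2301 and 3180.4 after FA and 2636, 2078 and 4017 after O3. The SP-A2 females had 4068, 2190.1, 3909 and 2542 after FA and 6545, 2396, 6998 and 3288 after O3. In these females 2 O3 mice were above every FA mouse and 2 were among them. Co-ex males showed 6025, 5952, 7688 and 1601 after FA and 5530.4, 6570.2 and 6329.7 after O3. In co-ex females the values were 2087, 1546, 2867 and 529 after FA and 2546, 2944, 6951 and 6075 after O3. FA replicate 4 was the lowest mouse of both co-ex tables, and without it the fitted difference in co-ex males went from 0.42 to -0.09 on the log2 scale. In KO males the values were 1411, 4474, 900.1 and 1349.6 after FA and 3249, 4124, 5945 and 4176 after O3. Here only FA replicate 2 reached the O3 mice, the fitted difference was 1.36 ± 0.49 (SE; adjusted p = 0.188, limma), and without that mouse it was 1.83 (adjusted p = 0.0219). The KO females had 2799, 4642, 6548 and 3294 after FA and 3335, 5592, 2167 and 5361 after O3, a difference of -0.09 ± 0.46 (SE).

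For mmu-mir-200a-3p, the chr4 member with the seed AACACUG, SP-A2 males had 957, 644 and 863 after FA and 1774, 1700.3 and 724 after O3. SP-A2 females had 179.6, 428, 424 and 709.7 after FA and 948, 506, 992 and 132 after O3. In either sex a pair of O3 mice exceeded every FA mouse, whereas O3 replicate 3 of the males and O3 replicates 2 and 4 of the females did not. Without O3 replicate 3 the fitted difference in SP-A2 males went from 0.68 (adjusted p = 0.467, limma) to 1.10 (adjusted p = 0.0839, limma). Co-ex males had 0, 245, 368 and 0 after FA and 1196, 36.1 and 68.9 after O3. Co-ex females had 41.6, 32.6, 214 and 0 after FA and 177, 85.8, 318 and 673 after O3. The zeros of co-ex FA mice give these tables fitted differences of 3.07 ± 3.16 and 3.35 ± 1.81 (SE), which depend on the value of 1 added before the logarithm. KO males had 399, 292, 168 and 273 after FA and 2927, 369.7, 4202 and 225 after O3. KO females had 42.8, 294, 339.9 and 49.1 after FA and 2332, 379.5, 141.3 and 159.7 after O3. Without O3 replicate 4 the KO males went from 1.89 (adjusted p = 0.347, limma) to 2.61 (adjusted p = 0.0545). The highest KO values came from 3 mice, O3 replicates 1 and 3 of the males and O3 replicate 1 of the females, the same mice whose AAUACUG share was lowest.

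For mmu-mir-429-3p, the third chr4 member, values in SP-A2 males were 403, 291 and 512 after FA and 980.1, 1457 and 574 after O3. Values in SP-A2 females were 174, 221, 397 and 200.9 after FA and 804, 389.8, 738 and 205 after O3. The SP-A2 males did not overlap between exposures, as was the case for 22.3% of the miRNAs of that table in either direction. The fitted difference was 1.26 ± 0.45 (SE; adjusted p = 0.207, limma), and 1.61 without O3 replicate 3 (adjusted p = 0.0553). Values in co-ex males were 102, 0, 115 and 0 after FA and 88.1, 0.859 and 112 after O3. Values in co-ex females were 0, 0, 117.2 and 0 after FA and 597, 0, 542 and 597 after O3. The largest fitted difference of the family, 5.16 ± 2.64 (SE; adjusted p = 0.485, limma), was that of the co-ex females, where 1 FA mouse was above 0. Values in KO males were 261, 355, 160.0 and 255 after FA and 1270.5, 286, 2085 and 458 after O3. Values in KO females were 151, 328, 121 and 22.4 after FA and 999, 78.7, 146 and 332 after O3. In KO males 3 of 4 O3 mice were above every FA mouse (1.63 ± 0.68, SE; adjusted p = 0.310, limma).

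For mmu-mir-200b-5p, the less abundant arm of its precursor, normalised values in SP-A2 males were 45.3, 54.1 and 179.6 after FA and 92.2, 62.8 and 180.0 after O3. Those of SP-A2 females were 102, 30.3, 70.2 and 144 after FA and 356, 138, 289 and 173 after O3. These females had the lowest adjusted p of this arm in a single table, 0.342 in limma for a difference of 1.56 ± 0.65 (SE). Co-ex males had normalised values of 0, 61.8, 98.6 and 0 after FA and 0, 395 and 417 after O3. Co-ex females had normalised values of 229, 149.8, 139 and 0 after FA and 140.3, 27.5, 698 and 241 after O3. Both co-ex tables overlapped between exposures. KO males had normalised values of 60.7, 50.9, 19.1 and 31.5 after FA and 47.7, 0, 158 and 107 after O3. KO females had normalised values of 40.6, 25.4, 139 and 74.3 after FA and 175, 67.4, 194 and 529 after O3. The fitted difference was above 0 in 5 of 6 tables, the KO males being the exception at -0.33 ± 1.87 (SE).

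For mmu-mir-141-3p, which shares a cluster with mmu-mir-200c-3p and a seed with mmu-mir-200a-3p, SP-A2 males had 192, 150.4 and 129 in FA and 171, 168 and 79.2 in O3. The SP-A2 females had 68.5, 41.4, 58.3 and 78.6 in FA and 138, 32.6, 148 and 18.1 in O3. These rest on 18 to 230 reads per mouse, and the exposures overlapped. The co-ex males had 58.1, 73.7, 0 and 0 in FA and 1.47, 0 and 1.23 in O3, the last 3 from 2, 0 and 1 reads. The KO males had 74.2, 14.5, 52.4 and 11.1 in FA and 197, 0, 812 and 0 in O3. The KO male fit gave -0.56 ± 2.39 (SE), although the mean was 38.1 ± 30.5 after FA and 252 ± 384 after O3 (SD, n = 4 each), with 2 O3 mice at 0. The KO females had 29.5, 33.9, 0 and 0 in FA and 302, 0.709, 62.6 and 0 in O3. The fitted difference of this member was above 0 in 1 of 5 tables, the KO females, at 1.24 ± 2.17 (SE).

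**Figure D3:**
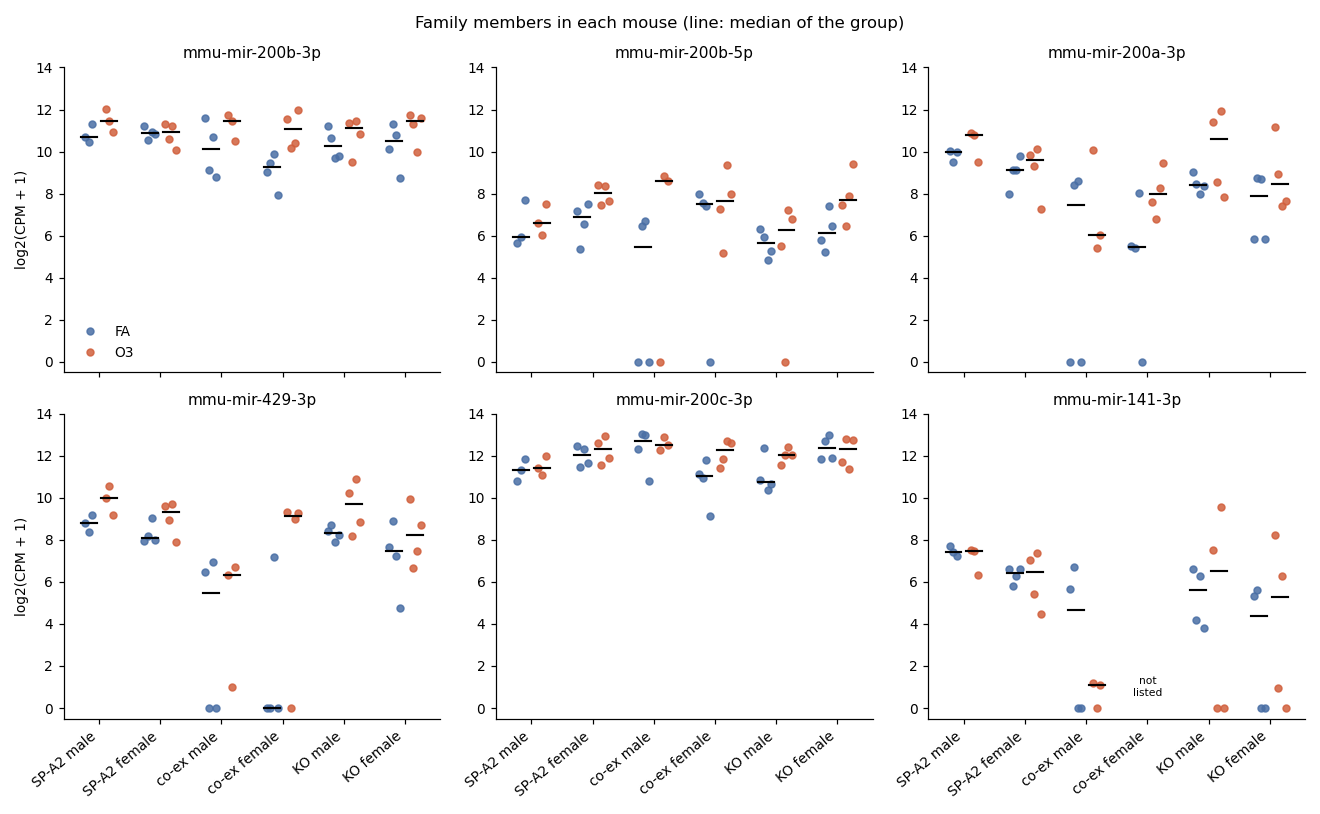
Each panel is 1 member, with log2(CPM + 1) on the vertical axis and genotype and sex on the horizontal axis; each point is a mouse (blue FA, orange O3) and the black lines are group medians. The points of mmu-mir-200c-3p (561 to 8362 CPM) and mmu-mir-200b-3p (242 to 4122 CPM) are all above 0, and the points at 0 of the other members lie among co-ex and KO mice.

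In the remaining 4 tables no member was among the miRNAs that did not overlap between exposures, which were 5.09% for SP-A2 females, 7.26% for co-ex males, 8.84% for KO males and 4.18% for KO females. Taking all tables, 2 of the 35 pairs had every O3 mouse above every FA mouse, and 0 had every O3 mouse below. The remaining arm of the precursors, mmu-mir-200a-5p, was listed in 5 tables with a median of 14 reads per mouse and was at 0 in 11 of 38 mice. Its difference over all tables was 1.04 ± 0.81 (SE; adjusted p = 0.481, limma).

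Whether the members kept their proportions was tested by log2 ratios of reads within a mouse, which do not depend on the normalisation. None of the 5 ratios passed an adjusted p of 0.1 after O3 in the two-sided permutation test within tables (100000 resamples, adjusted over the 5 ratios). The ratio of mmu-mir-200b-3p to mmu-mir-200c-3p, members with the same seed from the 2 clusters, had a mean of -1.43 ± 0.95 (SD, n = 23) after FA and -1.05 ± 0.84 (SD, n = 22) after O3, a difference of 0.35 ± 0.24 (SE, permutation adjusted p = 0.274). Within the chr4 cluster the difference was 0.84 ± 0.60 for mmu-mir-200a-3p over mmu-mir-200b-3p and 0.94 ± 0.70 for mmu-mir-429-3p over mmu-mir-200b-3p (SE, permutation adjusted p = 0.274 for both). The second of these was above 0 in 6 of 6 tables. Within the chr6 cluster, mmu-mir-141-3p over mmu-mir-200c-3p differed by -0.89 ± 0.96 (SE, 37 mice, permutation adjusted p = 0.422), and the 2 arms of mmu-mir-200b by 0.22 ± 0.76 (SE, permutation adjusted p = 0.762). In single tables the lowest exact permutation p, not adjusted over the tables and ratios tested, was 0.0286, for the arm ratio in SP-A2 females. There 4 against 4 mice cannot go below 0.0286, and 3 against 3 cannot go below 0.100. In these females the arm ratio was -4.25 after FA and -2.84 after O3, a difference of 1.42. Over the 6 tables the arm ratio was higher after O3 in 3 and lower in 3.

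Levels that had been centred within each table were set against each other over the mice, as a description, with depth and scaling shared by the points. Pearson's r between the 3p members of the chr4 cluster was 0.70 for mmu-mir-200b-3p and mmu-mir-429-3p (Spearman's rho 0.67), 0.56 for mmu-mir-200b-3p and mmu-mir-200a-3p (rho 0.58) and 0.51 for mmu-mir-200a-3p and mmu-mir-429-3p (rho 0.60). Over the 30 SP-A2 and KO mice alone these were 0.78, 0.72 and 0.75. The other arm, mmu-mir-200b-5p, had lower values with its own cluster, r = 0.32 with mmu-mir-200b-3p of the same precursor, 0.24 with mmu-mir-429-3p and 0.49 with mmu-mir-200a-3p over 45 mice. Between clusters, r with mmu-mir-200c-3p over 45 mice was 0.56 for mmu-mir-200b-3p, 0.57 for mmu-mir-200a-3p, 0.44 for mmu-mir-429-3p and 0.51 for mmu-mir-200b-5p, values within the range of the pairs of the chr4 cluster. Over the 30 SP-A2 and KO mice these 4 were 0.43, 0.22, 0.28 and 0.17. The other pair of a shared cluster, mmu-mir-200c-3p and mmu-mir-141-3p, had r = -0.13 over 37 mice and -0.26 over 30, while over those 30 mmu-mir-141-3p had r = 0.53 with mmu-mir-200a-3p and 0.55 with mmu-mir-429-3p.

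Whether sex or genotype altered the response was tested as the difference of O3 minus FA differences, over the 206 miRNAs of all 6 tables, which include 5 members. In the 20 tests of a member, limma called 0, 0 had an unadjusted p below 0.05, and edgeR called 0. Over all miRNAs the share called was 0% for males minus females, 0% for SP-A2 minus KO, 0.971% for co-ex minus KO and 0.485% for SP-A2 minus co-ex. For males minus females the members' values lay between -1.04 and 0.10 on the log2 scale, and for mmu-mir-200b-3p the difference was -0.10 with a 95% interval of -1.15 to 0.95. The widest point estimates were those of SP-A2 minus co-ex, between -2.69 for mmu-mir-200a-3p (95% interval -5.90 to 0.51, adjusted p = 0.668) and -0.56 for mmu-mir-200c-3p (-1.63 to 0.52, adjusted p = 0.840). For mmu-mir-200b-3p it was -1.24 (-2.55 to 0.07, adjusted p = 0.668). Against KO the values lay between -1.24 and 0.31 for SP-A2 and between 0.33 and 1.85 for co-ex.

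The levels themselves were compared between sexes and genotypes after each exposure, on log2(CPM + 1). Between males and females no member of 5 passed the test after FA (adjusted p from 0.781 to 0.934) or O3 (adjusted p from 0.854 to 0.997) in limma, with 0 of 10 at an unadjusted p below 0.05, 0 called by edgeR and 0% of all miRNAs called after either exposure. After FA, SP-A2 mice were above co-ex mice in 3 members, mmu-mir-429-3p by 5.96 ± 1.23 (SE; adjusted p = 0.000531), mmu-mir-200a-3p by 4.92 ± 1.10 (adjusted p = 0.00135) and mmu-mir-200b-3p by 1.30 ± 0.43 (adjusted p = 0.0150). For mmu-mir-200c-3p the difference was 0.14 ± 0.37 (adjusted p = 0.810). In that comparison 41.7% of all miRNAs were called, 67 higher and 19 lower in SP-A2, and the median over all was 1.02, which mmu-mir-200b-3p exceeded by less than its SE and the other 2 by more. Compared with KO after FA, co-ex mice were lower in 2 members, mmu-mir-429-3p (-5.15 ± 1.18, SE; adjusted p = 0.0119, limma) and mmu-mir-200a-3p (-3.36 ± 1.06, SE; adjusted p = 0.04996, limma), with 10.2% of all miRNAs called and a median of -0.62. Of these edgeR called neither, and 1 was called with a pseudocount of 10 or without co-ex male FA replicate 1 or 4, co-ex female FA replicate 4 or KO female FA replicate 2. The sizes for mmu-mir-429-3p and mmu-mir-200a-3p against co-ex after FA depend on zeros of co-ex FA mice and on the value of 1 added before the logarithm. After FA the mean CPM in SP-A2, KO and co-ex was 381, 268 and 44.1 for mmu-mir-429-3p. For mmu-mir-200a-3p it was 717, 299 and 135. Between SP-A2 and KO no member was called by limma after FA (2.91% of all miRNAs called) or after O3 (0% called), with 0 at an unadjusted p below 0.05.

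In CPM, mmu-mir-429-3p had a median of 325 in SP-A2 (243 to 588, n = 7), 269 in KO (26.0 to 470, n = 8) and 0 in co-ex (0 to 144, n = 8) after FA, and mmu-mir-200a-3p had medians of 720, 334 and 43.0 in the same order. After O3 the co-ex medians were 104 and 193. After O3 the only member called was mmu-mir-429-3p, higher in SP-A2 than in co-ex by 3.68 ± 1.27 (SE; adjusted p = 0.0610, limma), where 14.6% of all miRNAs were called. It was not called by edgeR, with a pseudocount of 0.1 or without SP-A2 male O3 replicate 1 or 2, co-ex male O3 replicate 2 or co-ex female O3 replicate 2. Against KO after O3, limma called no member of co-ex (1 had an unadjusted p below 0.05) and 0.971% of all miRNAs. For mmu-mir-200b-3p the medians of the 12 groups ran from 2846 in KO females after O3 to 612 in co-ex females after FA, with the 6 O3 groups first and the 6 FA groups last. For mmu-mir-200c-3p they ran from 6629 in co-ex males after FA to 1723 in KO males after FA. In these orders every group overlapped the next one in its range over mice, for each of the 6 members.

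The AM label was set against marker miRNAs of 6 cell types, summed as a share of listed reads. All 8 myeloid markers were listed, among them mmu-mir-223-3p in every mouse, and made up between 0.369% and 19.2% of reads (median 4.91%), of which mmu-mir-21a-5p, which many cell types express, was the largest part (median 4.36%). Of the defining ones, mmu-mir-142a-3p was at 0 in 8 of 45 mice and mmu-mir-155-5p in 4 of 45. In the fit over all tables, which called 18.5% of all 302 miRNAs, none of the 8 was called after O3 (median difference -0.14 on the log2 scale). Their summed share had a median of 5.81% after FA and 4.00% after O3, and the median was lower after O3 in 3 of 6 tables. In SP-A2 males every O3 mouse (5.46% to 16.2%) was below every FA mouse (17.8% to 19.2%). Of the single miRNAs of that table, 22.3% did not overlap between exposures, in either direction. The median was 10.1% in FA and 3.59% in O3 for SP-A2 females, and 7.03% and 3.96% for co-ex females, with the exposures overlapping. The erythroid list, in which mmu-mir-486b-5p dominated, made up between 0.136% and 37.0% of reads, and 0 of its 4 tested members were called. The lymphoid marker mmu-mir-150-5p was not called (0.33 ± 0.59, SE), and the 2 endothelial markers were listed in too few tables to be tested. The endothelial share was higher in every O3 mouse than in every FA mouse of both SP-A2 sexes. It was 0.0102% or more against 0.00129% or less in males, and 0.00368% or more against 0.00364% or less in females. Of single miRNAs, 22.3% and 5.09% did not overlap in these 2 tables, in either direction. In KO males the endothelial share was 0% to 0.107% after O3 (median 0.0207%) and 9.7e-05% or less after FA. FA replicates 1, 2 and 3 of the SP-A2 females and of the KO males were at 0%. A miRNA needed reads in 4 mice to be listed there, so an endothelial marker could be listed only through the O3 mice. The higher share after O3 is thus partly fixed by the listing for SP-A2 females and KO males.

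The other epithelial markers rose with the family. Over all 302 miRNAs of the fit over all tables, 46 were called higher and 10 lower (18.5%), with a median difference of 0.17. Of 9 epithelial markers tested, 6 were called higher after O3 and 0 lower, with a median difference of 2.28, the list being miRNAs typical of epithelium, such as those of ciliated cells, other than miR-200. They were mmu-mir-34b-3p (2.41 ± 0.55, SE; adjusted p = 0.00120), mmu-mir-34c-3p (3.22 ± 0.74), mmu-mir-34c-5p (2.64 ± 0.87), mmu-mir-375-3p (2.28 ± 0.57), mmu-mir-203-3p (2.46 ± 0.87) and mmu-mir-183-5p (2.07 ± 0.81, adjusted p = 0.0868, limma). For mmu-mir-205-5p, typical of basal cells, the value was 0.10 ± 0.65. The mesenchymal markers, typical of smooth muscle and fibroblasts, rose in 7 of 7 tested, with a median difference of 3.09, for example mmu-mir-143-3p by 3.26 ± 0.45 (SE; adjusted p = 1.33e-06). The summed share of the epithelial list had a median of 0.274% after FA and 0.585% after O3, and that of the mesenchymal list 0.393% and 1.19%.

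Across the 6 genotype and sex combinations, the median epithelial share was higher after O3 in 6 of 6 and the median mesenchymal share in 6 of 6. Every O3 mouse was above every FA mouse in 2 of them for the epithelial list and in 5 for the mesenchymal list. Of single miRNAs, between 4.18% (KO females) and 22.3% (SP-A2 males) did not overlap between exposures, in either direction. Centred within tables, the family's share had r = 0.80 with the epithelial list and 0.79 with the mesenchymal list over 45 mice, and -0.06 with the myeloid list, on a log2 scale and as a description over points that share their read total. The shares were not centred within exposures, so the shift after O3 is part of these values. FA replicate 4 of the co-ex females was the lowest mouse for the family (0.0975%), the epithelial list (0.0105%) and the mesenchymal list (0.0722%). Values of r without it are not given here. The part of cells other than macrophages, or of a lower share of myeloid markers, in the rise of the family was not tested.

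**Figure D4:**
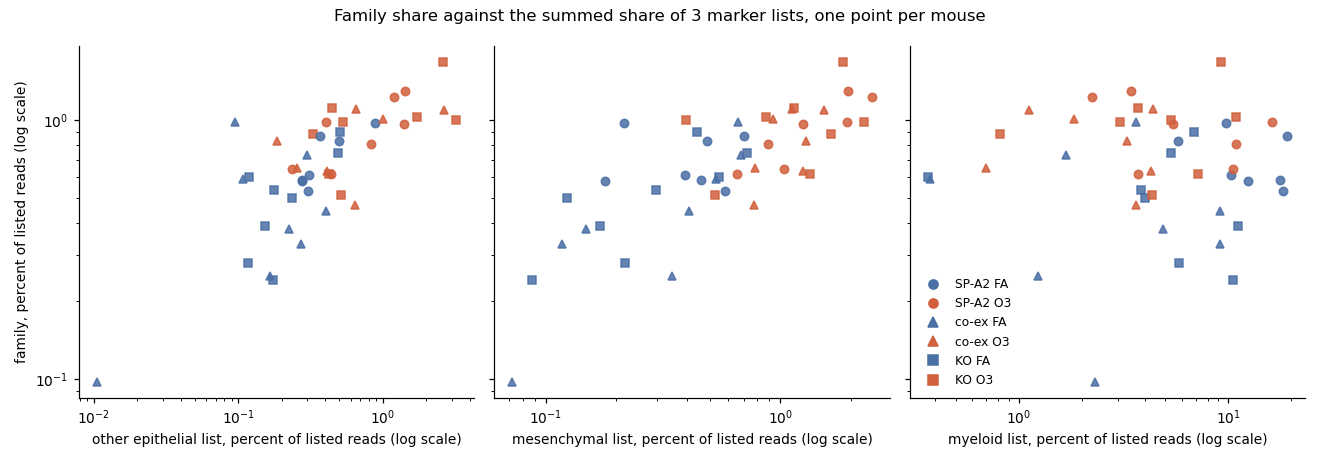
Each point is a mouse (circles SP-A2, triangles co-ex, squares KO; blue FA, orange O3), with the family's percent of listed reads on the vertical axis and the summed percent of the other epithelial, mesenchymal and myeloid markers on the horizontal axes, all on log scales. O3 mice lie to the upper right in the first 2 panels, and the myeloid panel shows no such order.

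The miRNAs outside the family whose levels were most like its summed level (the 5 members in all tables, centred within tables, 45 mice, 201 miRNAs compared) were mmu-mir-375-3p (Pearson's r = 0.80, Spearman's rho = 0.66), mmu-let-7c-5p (0.78 and 0.79), mmu-mir-125b-5p (0.76 and 0.80), mmu-mir-30a-5p (0.75 and 0.78) and mmu-mir-199b-3p (0.71 and 0.72). Over the 201 the median r was 0.10. Without the 2 mice farthest from the median, FA replicate 4 of the co-ex males and of the co-ex females, the 5 values of r were 0.64, 0.73, 0.73, 0.72 and 0.59. Levels were centred within tables and not within exposures, so the shift after O3 is part of these correlations. A rise of the 5 after O3 is therefore not a separate result. Their differences over all tables were 2.28, 1.01, 1.81, 1.08 and 3.35 on the log2 scale (adjusted p from 8.2e-05 to 0.00327, limma). One of them, mmu-mir-375-3p, is known from endocrine and secretory epithelial cells and is on the epithelial list, and mmu-mir-125b-5p and mmu-mir-199b-3p are on the mesenchymal list.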

How the data were processed

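Small RNA libraries of AM from 45 mice were made with the NEXTflex Small RNA kit. The authors deposited 6 tables, 1 per genotype and sex, with a normalized signal per miRNA and mouse (reads divided by a factor of the mouse) and with their own p-values, q-values and ranks of FA against O3, which were not used here. CASAVA and edgeR are named in the submitters' processing notes. The aligner, miRNA reference and genome build are not given in the sources used here. The tables were normalized separately.

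All values in a mouse were whole multiples of 1 step (100% whole, within 0.01 reads), which gave recovered reads. At least 100 values within 20 steps lay behind the step in 8 mice, and between 14 and 66 in the other 37, so the reads, CPM, ratios and count tests of the latter rest on fewer low values. O3 was compared with FA by limma 3.58.1 (R 4.3.3, trend) on log2(value + 1), with Benjamini-Hochberg adjustment over all miRNAs of the fit and a threshold of 0.1. Levels between tables used CPM of recovered reads over the 206 shared miRNAs with TMM factors, in the same model of 12 group means as the differences in response. Ratios used recovered reads plus 0.5 and a permutation test within tables (100000 resamples). Each result was recomputed with another pseudocount (0.1 or 10), a filter on low values, other scaling, a replicate block, edgeR 4.0.16 or DESeq2 1.42.0 on recovered reads, a threshold of 0.05, and each mouse left out, and 2 alternatives were added after seeing the data. In simulated counts with 60 miRNAs changed 8-fold, the fit over all tables recovered 83.3% and the fits of single tables between 0% (co-ex males) and 41.7%. The largest change of a member over all tables was 3.92-fold (mmu-mir-429-3p), and recovery at such smaller sizes is not given here.

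The members, marker lists and tests were chosen with earlier results of these data known. The miRNAs named are the members, the other arms of their precursors, the marker lists and the 5 miRNAs most like the family's summed level. Replicates are separate mice. No 2 libraries of a group agreed within sampling noise (lowest chi-square per degree of freedom 49.4 over 63 pairs). The replicate number was not taken to pair mice: 6 of 22 same-numbered pairs had deviations correlated above 0.1. Read totals cover the listed miRNAs and not the whole library, and PCR reads without molecular identifiers are not independent molecules. The sequences were matched by name to RefSeq (6 of 6), and the co-ex males had 4 mice after FA in the labels' titles although the protocol text gives fewer.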

Additional observations from a re-analysis of the deposited data

Results flagged for a closer look

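In 4 of the 52 sets of 4 mice of a group and member, 1 mouse lay far from the other 3, by the gap to its nearest neighbour over the whole range of log2(normalised value + 1). A nominal rate of 5% gives about 2.6 such cases. That rate is for normally spread values in independent sets, whereas several cases hold values at 0 and the members share mice. In the co-ex females after FA, replicate 4 was at 0 reads of mmu-mir-200b-5p, while the others had normalised values of 229, 150 and 139 (ratio 0.909). In the same group, replicate 3 had 96 reads of mmu-mir-429-3p, and the others were at 0 (ratio 1). In the co-ex females after O3, replicate 2 was at 0 reads of mmu-mir-429-3p, while the others had normalised values of 597, 542 and 597 (ratio 0.985). In the co-ex males after FA, replicate 4 had a normalised value of 1601 for mmu-mir-200c-3p, while the others had 6025, 5952 and 7688 (ratio 0.837). All 4 cases came from co-ex mice.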

How the results depend on the processing

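Of 994 recomputed main values (counts of members called and ratios), 970 were taken as unchanged. A count was so taken if equal or close to the main count, as 5 is to 4, and counts that stayed at 0 are included. A ratio was so taken if it kept its direction and side of the threshold. Of 833 values of single members, 788 kept their direction and side of the threshold. Over all tables the members called went from 4 to 2 by edgeR, which was run on the 5 members in all tables. They also went to 2 in the SP-A2 and KO tables only, an alternative chosen after seeing the data. In co-ex females DESeq2 called 1 member and in KO males 2, against 0. For the level after FA, co-ex against KO went from 2 called to 1 (pseudocount 10) and 0 (edgeR), and after O3 SP-A2 against co-ex from 1 to 0 (pseudocount 0.1, and edgeR). Leaving out 1 mouse gave 0 to 2 members in SP-A2 males (2 without O3 replicate 3), 0 to 1 in co-ex females and in KO males, 4 to 5 over all tables, 1 to 2 for the level of co-ex against KO after FA, 0 to 1 for SP-A2 against co-ex after O3, and -0.066 to 0.71 for the arm ratio, which was below 0 without co-ex male O3 replicate 2 or 3 or co-ex female FA replicate 4. The cause was not tested.

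The sign of 12 differences, none of them called, turned under some alternative. Leaving out 1 mouse, the range in SP-A2 males was -0.0031 to 1.02 for mmu-mir-200b-5p and -0.42 to 0.13 for mmu-mir-141-3p. In SP-A2 females it was -0.092 to 0.41 for mmu-mir-200b-3p, -0.011 to 1.00 for mmu-mir-200a-3p and -0.45 to 0.54 for mmu-mir-141-3p. It was -0.087 to 0.67 for mmu-mir-200c-3p in co-ex males and -0.069 to 2.62 for mmu-mir-200b-5p in co-ex females. KO males gave -1.13 to 1.31 for mmu-mir-200b-5p and -2.34 to 0.88 for mmu-mir-141-3p, and KO females -0.28 to 0.18 for mmu-mir-200c-3p and -0.26 to 2.49 for mmu-mir-141-3p. With a pseudocount of 10, edgeR and DESeq2 in turn, mmu-mir-141-3p became 0.048, 0.31 and 0.31 in SP-A2 females and 0.66, 2.24 and 2.37 in KO males, and mmu-mir-200b-5p 0.28, 0.48 and 0.67 in KO males. Over all tables mmu-mir-141-3p became 0.077 with a pseudocount of 10, 0.13 in the SP-A2 and KO tables only and 0.12 without mice under 200000 listed reads.

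Most same-numbered mice did not deviate together (r from -0.24 to 0.35 over 22 pairs, 6 of them over 0.1), and whether they shared any handling was not tested. With a replicate block 4 members were called over all tables, no count of members called changed, the ratio of mmu-mir-200b-3p to mmu-mir-200c-3p differed by 0.35, and mmu-mir-200c-3p in co-ex males became -0.087. Over the single tables limma called 0 to 17 miRNAs, edgeR 0 to 16 and DESeq2 2 to 54. The median number of reads per mouse was 40 for mmu-mir-141-3p and 74 for mmu-mir-200b-5p, against 2952 for mmu-mir-200c-3p, and the part of depth in the calls of the first 2 was not tested.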
